A study of Caenorhabditis elegans with 2 samples.

Results

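The genes described here are those for the proteins of the cytosolic ribosome of the nematode Caenorhabditis elegans. They were taken by symbol from the WBcel235 annotation as the protein-coding genes named rpl, rps or rla with a number, plus ubl-1, which encodes a small-subunit protein fused to a ubiquitin-like domain. The rule found 82 of the 19985 protein-coding genes, 50 for the large subunit (rpl and rla) and 32 for the small subunit (rps and ubl-1). The measurement was chromatin immunoprecipitation with sequencing (ChIP-seq) of NHR-28, a nuclear hormone receptor, through a copy tagged with eGFP. Whole embryos of mixed stages, males and females pooled, came from strain OP317, which carries unc-119(ed3) on chromosome III and the transgene insertion wgIs317. Both biological replicates share this genotype and form 1 group. There was no comparison group without the tag, without treatment or of another stage, and whether a region depends on NHR-28 was not tested. The cells that carry the signal within the embryo are not known, and region lists hold no expression values against which the stage could be checked.

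Ribosomal protein genes encode the proteins that assemble with ribosomal RNA into the small subunit, which reads the messenger RNA, and the large subunit, which joins amino acids. Most of these proteins occur in a single copy per ribosome, and their genes are among the most highly expressed of growing cells. Nuclear hormone receptors are transcription factors with a zinc-finger DNA-binding domain, and the family is much expanded in nematodes. Many messenger RNAs of this worm, those of ribosomal proteins among them, receive a spliced leader in place of their first bases, so that an annotated 5' end may be a trans-splice site and not the start of transcription.

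The authors deposited regions with a signal value, their measure of strength against a control, and a summit, the base of highest signal. A relaxed list from both replicates together (the pooled list) held 30000 regions, the list of replicate 1 held 14746 and that of replicate 2 held 4556. A step that keeps regions ranked alike in both replicates, the irreproducible discovery rate (IDR), left 238 peaks, the weakest with a signal of 56.4. A gene was counted with a list when a summit lay within 1000 bp of one of its annotated 5' ends, also where another gene was nearer, and its strongest such region gave its signal. Signal scales depend on the library, so values are compared within a list. No read totals were analysed, and the sequencing depth is unknown.

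The sequences around the summits of 7 of the 8 ribosomal protein genes with an IDR peak are shown first, to give the letters that lay under the strongest regions. That of rps-20 is not shown, and its window held TACGGTA but not TACACT. Each runs for 101 bases, 50 to either side of the pooled summit, 5' to 3' on the strand of the gene, from the RefSeq WBcel235 (ce11) genome. Capitals mark TACACT, written AGTGTA where it lies on the other strand, and TACGGTA, both chosen after these summits had been read.
rpl-3 (chrIII:3867528-3867628, + strand): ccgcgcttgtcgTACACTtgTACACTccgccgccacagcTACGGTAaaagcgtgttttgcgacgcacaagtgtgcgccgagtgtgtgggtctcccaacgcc
rpl-20 (chrIV:4750041-4750141, - strand): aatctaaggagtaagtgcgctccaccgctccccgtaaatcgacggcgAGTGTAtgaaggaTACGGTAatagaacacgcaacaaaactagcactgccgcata
rpl-35 (chrIII:7854651-7854751, + strand): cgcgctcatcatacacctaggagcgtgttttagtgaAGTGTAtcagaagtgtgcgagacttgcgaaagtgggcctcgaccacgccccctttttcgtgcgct
rpl-15 (chrIV:654874-654974, - strand): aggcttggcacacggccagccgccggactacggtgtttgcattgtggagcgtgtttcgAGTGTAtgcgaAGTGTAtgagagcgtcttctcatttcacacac
rps-1 (chrIII:4475598-4475698, + strand): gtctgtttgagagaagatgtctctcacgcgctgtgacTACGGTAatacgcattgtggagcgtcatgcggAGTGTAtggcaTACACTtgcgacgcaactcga
rps-28 (chrIV:1659195-1659295, + strand): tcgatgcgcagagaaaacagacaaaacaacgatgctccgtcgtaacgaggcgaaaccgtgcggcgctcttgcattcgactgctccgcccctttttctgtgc
rps-12 (chrIII:5679079-5679179, + strand): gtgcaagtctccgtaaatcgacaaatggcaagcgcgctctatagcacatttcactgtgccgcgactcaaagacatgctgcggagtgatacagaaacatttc
In this stretch rpl-3, rpl-15 and rps-1 held TACACT at 2 places each, and rpl-20 and rpl-35 at 1. The letters TACGGTA stood at 1 place in rpl-3, rpl-20 and rps-1. Neither was found in the 101 bases of rps-28 and rps-12.

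Genes for ribosomal proteins had a region near their 5' end more often than protein-coding genes as a whole in every list. An IDR summit lay within 1000 bp of 8 of the 82 genes (9.76%), against 0.921% of all protein-coding genes. A pooled region was found at 75 (91.5%), against 53.7% of all. Where the summit of the strongest pooled region also had to lie in a region of each replicate, the counts were 31 genes (37.8%), against 5.19% of all. In replicate 1 alone 60 genes (73.2%) had a region, against 32.6% of all, and in replicate 2 alone 40 (48.8%), against 13.2%. The pooled list is long enough to reach most genes, so that its 91.5% stands on a high background, while in the short lists the background was low. One of the 1000 strongest pooled regions lay near 30 of the genes (36.6%), against 3.87% of all protein-coding genes. Both subunits gave similar shares, with 4 of 50 large-subunit and 4 of 32 small-subunit genes in the IDR list, 19 and 12 with a pooled region found in both replicates, and 45 and 30 with any pooled region. These counts describe positions in 2 libraries, and chance was not tested.

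**Figure D1:**
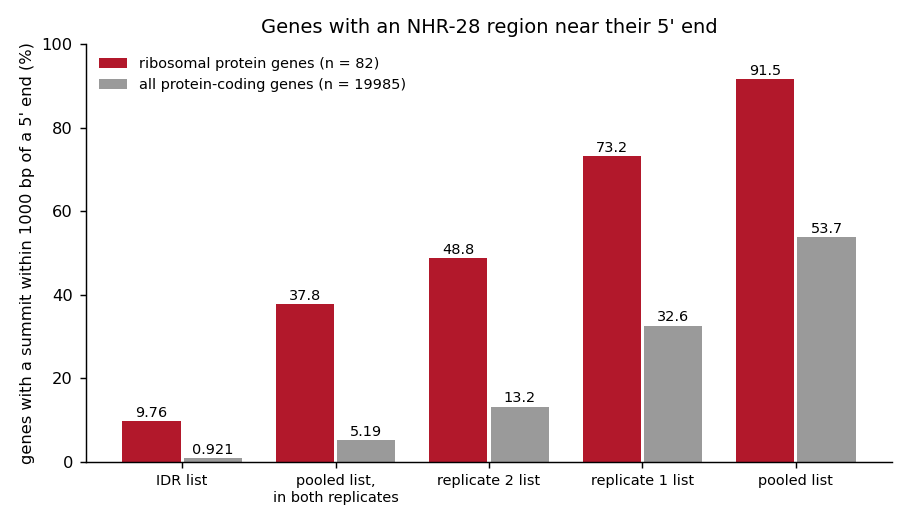
Percent of genes with a summit within 1000 bp of a 5' end (vertical axis) in each list, for the 82 ribosomal protein genes (red, left bar of each pair) and all 19985 protein-coding genes (grey, right bar). The red bar is the taller in all 5 pairs, from 9.76% against 0.921% in the IDR list to 91.5% against 53.7% in the pooled list.

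The signals were also higher. Among the 75 genes with a pooled region the median signal was 28.8 (quartiles 20.6 and 43.7, range 12.8 to 161), against a median of 18.2 over all protein-coding genes with one. In the replicate 1 list the medians were 19.7 for ribosomal protein genes and 13.3 for all genes, and in the replicate 2 list 19.1 and 16.3. The 8 genes in the IDR list had a median signal of 104, against 73.1 for all genes with an IDR peak. Those 184 genes include 12 of the mitochondrial genome, and without them 172 nuclear genes (0.861%) remained, a background chosen after the data were seen.

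The strongest region belonged to rpl-3, whose product lies close to the centre where the large subunit joins amino acids. It spanned only 126 bp (chrIII:3867512-3867637) with a signal of 161, 76.6 in replicate 1 and 84.7 in replicate 2, and ranked 18 among the 30000 pooled regions. Its summit lay 276 bp upstream of the 5' end, and no other protein-coding gene started within 1000 bp of it. Both replicates placed the summit within 14 bp of each other. Of the large-subunit genes, rpl-20 followed with 122 (chrIV:4749929-4750252), 77.4 in replicate 1 and 37.4 in replicate 2. Replicate 1 thus gave rpl-20 and rpl-3 like values, whereas replicate 2 put rpl-3 well above it. The rpl-20 summit lay 313 bp upstream and only 149 bp from the 5' end of Y17G9B.5 on the other strand.

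For rpl-35, which encodes a protein near the exit of the large subunit's peptide tunnel, the signal was 111 (chrIII:7854539-7854862), 64.1 in replicate 1 and 50.4 in replicate 2. Its summit stood 433 bp upstream with no other protein-coding 5' end within 1000 bp. The rpl-15 region had 99.7 (chrIV:654762-655085), 49.2 in replicate 1 and 51.2 in replicate 2, with its summit 348 bp upstream and 466 bp from K11H12.8 on the other strand. These 4 large-subunit genes all stood among the 51 strongest pooled regions.

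Among the small-subunit genes, rps-20 was highest with 109, 57.2 in replicate 1 and 50.4 in replicate 2. The rps-20 summit, 252 bp upstream, was 145 bp from the 5' end of ekl-4 on the other strand, so that ekl-4 was the nearer gene. The rps-28 region reached 78.3, 32.6 in replicate 1 and 44.7 in replicate 2, and its summit lay 446 bp upstream, the farthest of the 8. Its only other gene within 1000 bp was Y41D4B.4, 865 bp away on the same strand.

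The rps-1 region (chrIII:4475486-4475809) had 69.4, 36.9 in replicate 1 and 33.9 in replicate 2. Its summit, 270 bp upstream of rps-1, lay 498 bp from ifet-1, which encodes a binding partner of the cap-binding protein eIF4E, and inside the annotated non-coding RNAs F56F3.10 and F56F3.11. The lowest of the 8 was rps-12 with 64.9, 46.3 in replicate 1 and 23.5 in replicate 2. It was the only one of the 8 with a q-value above 0.05 in a replicate (0.203 in replicate 2). The rps-12 summit, 169 bp upstream, was 124 bp from ska-3, a gene of the spindle and kinetochore. Of the 8, rpl-20 and rps-12 had the widest margins in favour of replicate 1 and rps-28 the widest in favour of replicate 2, on lists with different scales.

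All 8 summits lay between protein-coding genes and upstream, and none had a tRNA, snoRNA, snRNA, rRNA or miRNA gene within 200 bp. Over all 184 protein-coding genes with an IDR peak, the summit was upstream in 151 (82.1%). With summits at RNA genes left out, 146 of those 184 genes kept an IDR peak. A gene on the other strand started within 1000 bp in 5 of the 8, and the ribosomal protein gene was the nearest in 5. The counts of other-strand genes and of summits between genes have no share over all protein-coding genes beside them. For rpl-20, rps-20 and rps-12 the other-strand gene was nearer, and to which of the pair such a region belongs cannot be told apart by position. Without those 3 genes, counting only the nearest gene of each summit, 5 ribosomal protein genes (6.1%) had an IDR peak, against 0.645% of all protein-coding genes. The replicate summits of the 8 lay 6 to 71 bp apart, with a median of 23 bp.

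**Figure D2:**
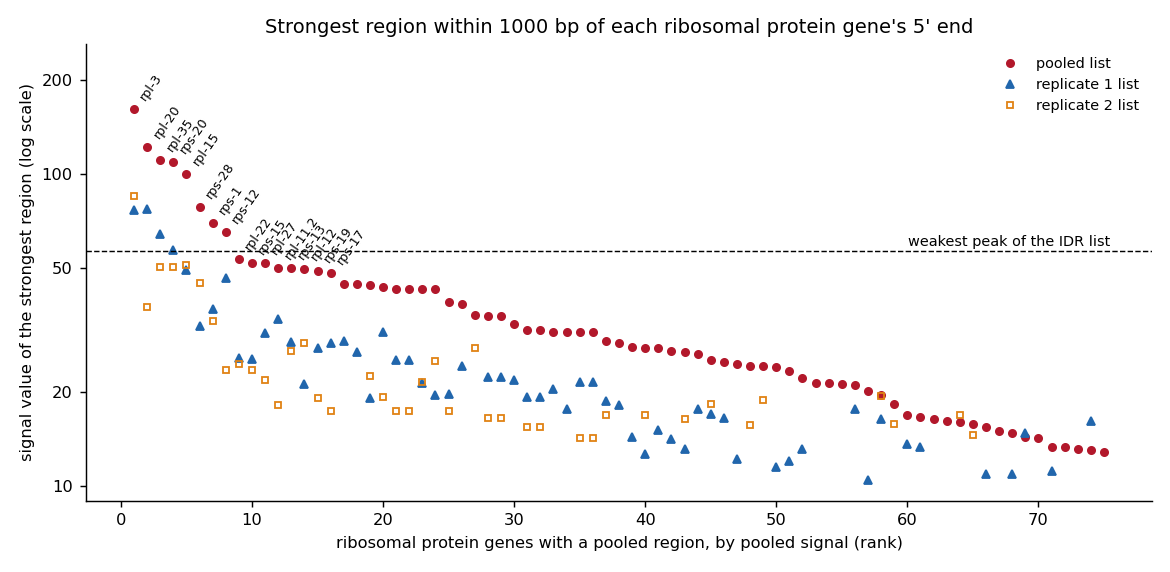
Signal value of the strongest region (vertical axis, log scale) for the 75 ribosomal protein genes with a pooled region, ranked by pooled signal (horizontal axis), in the pooled list (red circles), replicate 1 (blue triangles) and replicate 2 (orange squares). The dashed line is the weakest IDR peak at 56.4, the 8 genes from rpl-3 to rps-12 stand above it, and the replicate 2 squares become sparse to the right.

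Just inside the IDR list stood rps-28, rps-1 and rps-12 with 78.3, 69.4 and 64.9. Just outside it stood rpl-22, rps-15 and rpl-27 with 53.2, 51.9 and 51.8. Among these genes the widest step between neighbours lay between rps-12 and rpl-22, across the border at 56.4. Below the border were 23 genes without an IDR peak whose pooled summit lay in a region of both replicates. Their pooled signals ran from 26.9 to 53.2 with a median of 42.8.

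In this second group the large-subunit genes began with rpl-22 at 53.2, 25.7 in replicate 1 and 24.7 in replicate 2, on the other strand from ify-1, the securin gene. The rpl-27 region had 51.8, 31.0 in replicate 1 and 21.96 in replicate 2. Its summit lay 620 bp downstream of the annotated start, beyond the gene's 3' end. Its nearest 5' end was that of egl-30, a G protein alpha subunit gene on the same strand 158 bp away, with C53H9.4 at 277 bp, so that rpl-27 was not the closest candidate. On the X chromosome rpl-11.2, whose product binds 5S ribosomal RNA, had 49.98, 34.4 in replicate 1 and 18.3 in replicate 2. That replicate 1 value was the highest of any ribosomal protein gene outside the IDR list, and its replicate 2 value lay close to the median.

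The rpl-12 region, at a gene of the stalk base where elongation factors bind, had 49.7, 21.3 in replicate 1 and 28.8 in replicate 2. It sat 42 bp upstream of rpl-12 and 351 bp from lin-54, which encodes the DNA-binding subunit of the DREAM repressor complex. With rpl-12 the order of replicates was the reverse of rpl-11.2, and its replicate 2 value was the highest outside the IDR list. Lower down, rpl-31 had 44.2, 19.2 in replicate 1 and 22.6 in replicate 2, across from sac-2. The rpl-14 region gave 43.3, 31.2 in replicate 1 and 19.3 in replicate 2. At rpl-28 it was 42.8, 21.5 in each replicate, and the gene on the other strand was mrpl-49, for a mitochondrial ribosomal protein. Values close to these came from rpl-7 (42.7, 19.7 in replicate 1 and 25.2 in replicate 2, with rab-11.1 on the other strand) and rpl-32 (38.8, 19.7 in replicate 1 and 17.5 in replicate 2). The last was rpl-23 with 26.9, 13.2 in replicate 1 and 16.5 in replicate 2.

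Of the small-subunit genes rps-15 had 51.9, 25.5 in replicate 1 and 23.6 in replicate 2, opposite F36A2.9. Next came rps-13 with 49.8, 29.0 in replicate 1 and 27.1 in replicate 2, opposite nfx-1. The rps-19 gene, whose human counterpart is mutated in Diamond-Blackfan anaemia, had 48.8, 27.7 in replicate 1 and 19.2 in replicate 2, opposite hsr-9. A signal of 48.1 was seen at rps-17, 28.8 in replicate 1 and 17.5 in replicate 2, and 29.3 at rps-4, 18.7 in replicate 1 and 16.9 in replicate 2. Replicate 1 was thus the higher number in each of these 5, but the scales of the lists differ and no order between replicates follows from it.

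In 4 cases a single region was the strongest of 2 ribosomal protein genes, so that 8 genes rest on 4 measurements and the 75 genes on 71 regions. The divergent pair rpl-24.1 and rps-10 shared a region of 42.8 (25.4 in replicate 1 and 17.4 in replicate 2), with its summit 239 bp from rpl-24.1 and 371 bp from rps-10. Another divergent pair, rpl-36 and rps-14, shared one of 35.1 (22.4 in replicate 1 and 16.5 in replicate 2), and rpl-39 and rps-30 one of 31.7 (19.4 in replicate 1 and 15.5 in replicate 2). The neighbours rpl-41.1 and rpl-41.2, on the same strand, shared one of 31.2 (21.5 in replicate 1 and 14.3 in replicate 2), upstream of rpl-41.2 and downstream of rpl-41.1. All 4 shared regions were found in both replicates and none was an IDR peak.

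The other ribosomal protein genes had weaker or less repeated regions. A pooled summit inside a region of replicate 1 only was found at 23 genes (13.0 to 44.5, median 25.4), led by rpl-24.2 with 44.5. Replicate 2 alone held it at 6 genes (16.1 to 35.2, median 24.3), led by rpl-6. Neither replicate held it at 15 (12.8 to 21.5, median 15.9), so that every pooled region above 21.5 lay in a region of at least 1 replicate. The counts of 23, 6 and 15 have no share over all protein-coding genes beside them. The replicate 1 list is also the longer, with 14746 regions against 4556 in replicate 2. Whether this split is particular to ribosomal protein genes was not tested. No pooled region lay near 7 genes, namely rpl-2, rpl-13, rpl-21, rps-2, rps-7, rla-1 and rla-2. Of these, 6 had none in any list, and rps-7 had a replicate 1 region of 10.7 at 848 bp upstream. The genes of the acidic stalk, which recruits elongation factors to the large subunit, were thus at the low end, since rla-0 had 13.4 in the pooled list and rla-1 and rla-2 had no region. The ubiquitin-like fusion gene ubl-1 had 33.2 in the pooled list and 21.8 in replicate 1, with no replicate 2 region.

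Genes that share a symbol number did not all stand at like levels. The paralogs rpl-11.2 and rpl-11.1 had pooled signals of 49.98 and 16.6, with summits 372 bp upstream and 621 bp downstream. The signals of rpl-25.1 and rpl-25.2 were 23.4 and 21.5, but at unlike places, 940 bp downstream (beyond the 3' end of rpl-25.1) and 127 bp upstream. The first was found in replicate 1 only and the second in neither replicate. For rpl-24.1 and rpl-24.2 the signals were 42.8 and 44.5, at 239 and 160 bp upstream. The rpl-24.1 region is the one shared with rps-10, and the rpl-24.2 region was found in replicate 1 only. Genes whose products sit together in the ribosome also differed. Of those for the 5S ribosomal RNA particle and the stalk, rpl-5 had 21.0, rpl-11.2 had 49.98, rpl-12 had 49.7 and rla-0 had 13.4.

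The authors' q-values were 0.05 or less for 15 ribosomal protein genes in replicate 1, for 8 in replicate 2 and for 7 (8.54%) in both, against 0.59% of all protein-coding genes in both. The counts of 15 and 8 have no share over all protein-coding genes beside them. The 7 were the IDR genes other than rps-12. Below them the only replicate 2 region at that q-value was that of rpl-12 (0.0418), so that most regions counted above had q-values over 0.05 in each library taken alone.

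Across the 34 ribosomal protein genes with a region in both replicate lists, the strongest signals were related with r = 0.818 and rho = 0.650. The 1595 nuclear protein-coding genes with regions in both lists gave r = 0.726 and rho = 0.464. Without genes that have an IDR peak, the 26 ribosomal protein genes gave r = 0.240 and rho = 0.288 and the 1428 nuclear genes r = 0.287 and rho = 0.283, a comparison added after the data were seen. These values describe genes that share the same libraries, some of them the same region, and carry no test. The IDR step keeps strong regions that rank alike, so leaving its genes out narrows the range and can lower these values by construction. How far it did so here was not tested. The summits of the 34 genes lay a median of 69.5 bp apart between replicates, within 100 bp in 27 and up to 647 bp apart.

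**Figure D3:**
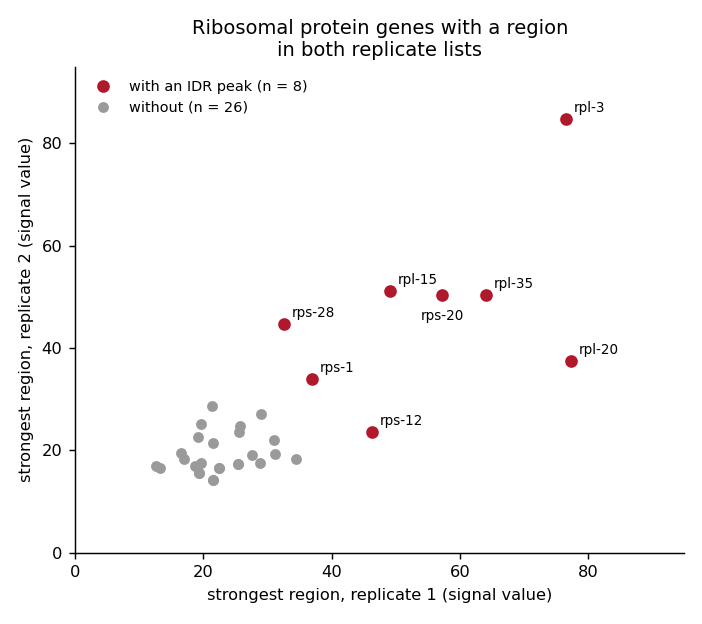
Signal of the strongest region in replicate 1 (horizontal axis) and replicate 2 (vertical axis) for the 34 ribosomal protein genes with a region in both lists, 8 with an IDR peak (red, named) and 26 without (grey, coinciding where genes share a region). The red points spread up to rpl-3 at 76.6 and 84.7, and the grey points form a compact group that reaches 34.4 on the first axis and 28.8 on the second.

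The regions stood at a narrow range of distances from the 5' ends. The strongest pooled summit was upstream in 67 of the 75 ribosomal protein genes with one (89.3%), against 60.4% of all such protein-coding genes. Its median position was 271 bp upstream (quartiles 371.5 and 184 bp upstream), against 134 bp upstream over all protein-coding genes, whose middle range ran from 469 bp upstream to 325 bp downstream. Between 100 and 450 bp upstream, an interval chosen after the positions were seen, lay 53 of the 75 summits (70.7%), against 27.0% of the other protein-coding genes. Large-subunit genes had a median of 267 bp and small-subunit genes of 271.5 bp. The IDR summits of the 8 genes lay 169 to 446 bp upstream with a median of 294.5 bp. In the replicate lists the medians were 286.5 bp upstream in replicate 1 and 276 bp upstream in replicate 2, against 134 bp and 183.5 bp for all genes. Close to the 5' end the pooled share stood near that of all genes. Within 200 bp of a 5' end a pooled summit was found at 17 ribosomal protein genes (20.7%), against 18.1% of all, and an IDR summit at 1, rps-12 (1.22%), against 0.325%.

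**Figure D4:**
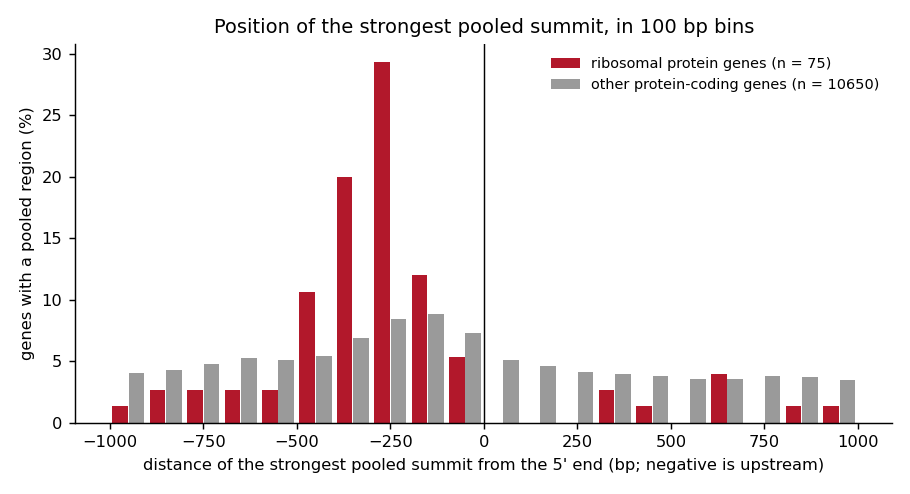
Percent of genes (vertical axis) by distance of the strongest pooled summit from the 5' end in bins of 100 bp (horizontal axis, negative is upstream), for 75 ribosomal protein genes (red, left bar of each pair) and 10650 other protein-coding genes (grey, right bar). The red bars are highest from 400 to 200 bp upstream, where the bins hold 15 and 22 genes, and the grey bars are spread over the whole range.

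Of the 75 summits 61 lay between protein-coding genes, 4 in an intron and 10 in an exon. Another protein-coding gene started on the other strand within 1000 bp in 46, and the ribosomal protein gene was the nearest in 46. A single pooled region was present at 52 of the genes, and 23 had at least 2, up to 4 at rpl-12. Shares over all protein-coding genes were not set beside these counts, so whether they are particular to ribosomal protein genes was not tested. The base composition around the summit (100 bp to either side) averaged 41.98 ± 4.26% G and C for the 8 IDR genes (SD) and 39.7 ± 5.96% for the 75 genes, against 36.1 ± 6.52% for all protein-coding genes with a pooled region and 43.9 ± 5.53% for the 164 other nuclear genes with an IDR peak. The IDR genes were thus close in composition to the other IDR peaks.

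**Figure D5:**
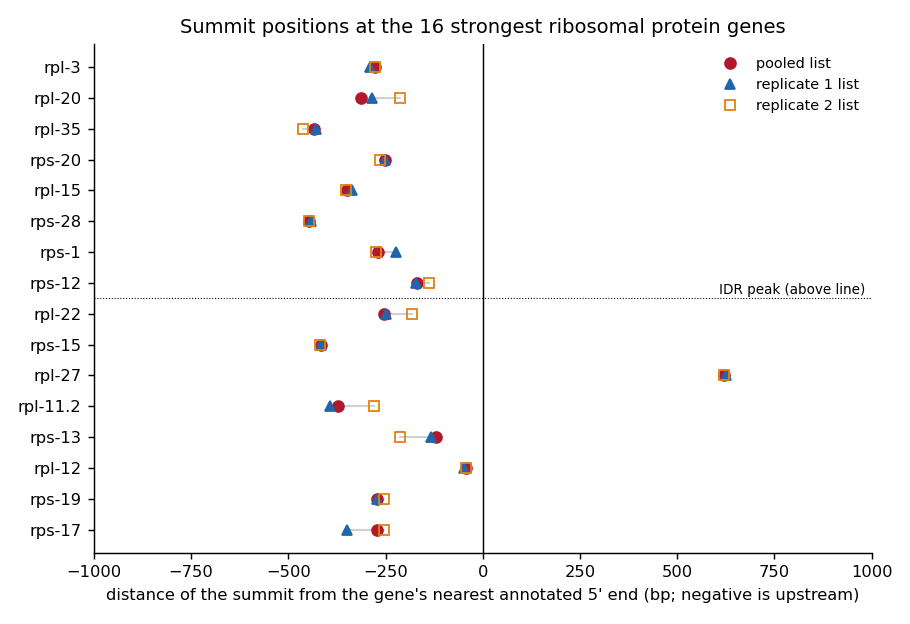
Distance of the summit from the 5' end (horizontal axis, bp, negative is upstream) in the pooled list (red circles), replicate 1 (blue triangles) and replicate 2 (orange squares) for the 16 strongest ribosomal protein genes, strongest at the top, with a grey line joining the replicates. All but rpl-27, at 620 bp downstream, lie upstream, and the 8 genes above the dotted line have an IDR peak.

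Both strands were read for short sequences, out to 100 bp on either side of the strongest pooled summit. The nuclear receptor half-site AGGTCA was found at 0 of the 8 IDR genes and at 1 of the other 67 ribosomal protein genes with a pooled region, against 12.2% of the 164 other nuclear genes with an IDR peak and 5.13% of all genes with a pooled region. The longer AAGGTCA, which contains it, was found at 0 of the 75, against 3.05% and 1.65% of those same groups. GAGAGA stood at 2 of the 8 and 12 of the 67 (18.7% of the 75), against 29.9% and 15.1%. TTTTTTT stood at 6 of the 8 and 30 of the 67 (48.0%), against 25.6% and 38.2%. That order turned with the window, since within 50 bp of the summit TTTTTTT was at 12% of the 75 genes, against 21.4% of all genes with a pooled region. TATAAA was found at 0 of the 8 and 12 of the 67 (16%), against 11.6% and 22.1%, and CTTCTTC at 0 and 2 (2.67%), against 4.88% and 5.51%. TTTCAG, the form of the worm's 3' splice site, was found at 2 of the 8 and 20 of the 67 (29.3%), against 14% and 34.3%. Within 150 bp this order turned as well, to 56% of the 75 genes, against 47.8% of all genes with a pooled region.

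Another 4 sequences were added after the summits of the 16 strongest genes, which include the 8 with an IDR peak, had been read and short words counted over all the summits of ribosomal protein genes. Their counts at these genes thus describe what was chosen. TACACT lay at 5 of the 8 IDR genes, the 5 with capitals in the lines shown above, and at 1 of the other 67, rps-24. Together these were 8% of the 75, against 17.7% of the 164 other nuclear genes with an IDR peak and 7.63% of all genes with a pooled region. Over the 75 genes the share of TACACT was thus near that of all genes. Outside the 16 genes read first TACACT was at 1 of 59 (1.69%), and within 150 bp of the summit at 8% of the 75, against 11.5% of all. TACGGTA lay at 4 of the 8 (rpl-3, rpl-20, rps-1 and rps-20) and at 14 of the 67, together 24.0% of the 75, against 4.27% and 3.27%. Outside those 16 genes TACGGTA was present at 11 of 59 (18.6%). GGCCTAA was present at 3 of the 8 and 14 of the 67 (22.7%), against 1.22% and 1.54%, and CGAGACC at 0 and 18 (24.0%), against 3.66% and 3.45%. Genes that share a region share its window, so some windows were counted for 2 genes. For CGAGACC these were the windows of rpl-39 with rps-30 and of rpl-41.1 with rpl-41.2. For TACGGTA it was that of rpl-24.1 with rps-10. A match is a set of letters, not a bound site.

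The same sequences were counted in the promoter window from 250 bp before to 50 bp after the 5' end. TACACT was present in 3.66% of the 82 ribosomal protein genes, against 10.8% of all protein-coding genes, and TACGGTA in 8.54%, against 4.08%. GGCCTAA stood in 17.1%, against 1.57%, and CGAGACC in 7.32%, against 3.04%. TTTCAG stood in 69.5%, against 51.7%, and TATAAA in 26.8%, against 38%. The other windows gave 7.32% against 8.27% for AGGTCA, 4.88% against 3.04% for AAGGTCA, 22% against 21.8% for GAGAGA, 11.0% against 10.3% for CTTCTTC and 58.5% against 52.2% for TTTTTTT. The summits lay a median of 271 bp upstream, and how far the stretches around them overlap this window was not measured.

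Ribosomal protein genes are hosts of small nucleolar RNAs (snoRNAs), which guide chemical changes of ribosomal RNA and are cut out of introns. In the annotation 14 of the 82 held 21 snoRNA genes in their introns. None of the 21 had a summit of the pooled or IDR list within 200 bp, against 39.3% and 9.83% of all 346 snoRNA genes. For snoRNA genes in introns of other protein-coding genes the numbers were 49 of 124 (39.5%) in the pooled list and 11 in the IDR list, and for those outside such introns 87 of 201 (43.3%) and 23. At this distance none of the snoRNA regions of these libraries was inside a ribosomal protein gene. Of the 14 hosts 2 had an IDR peak, rpl-15 with K11H12.12 and K11H12.13 and rps-12 with F54E7.10 and F54E7.11, against 6 of the 68 other ribosomal protein genes. The nearest of these snoRNAs to its host's summit was F54E7.10, 249 bp away. A pooled region found in both replicates was present at 6 hosts, against 25 of the 68. The others of these named above, with the snoRNA in brackets, are rpl-7 (F53G12.12), rpl-24.1 (D1007.20), rps-4 (Y43B11AR.7) and rps-13 (C16A3.11). Median pooled signals were 35.2 for hosts with a pooled region and 27.0 for the others.

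Other genes of protein synthesis were counted in the same way, from lists chosen with earlier results of these data known. Of 70 mitochondrial ribosomal protein genes 2 had an IDR summit, mrps-28 and mrpl-23, at 987 bp upstream and 886 bp downstream, and 9 (12.9%) had a pooled region found in both replicates, against 37.8% of the cytosolic ones. Of 42 translation factor genes 5 had an IDR summit and 10 (23.8%) a region in both replicates. Those 5 were iff-2 with 74.8, the elongation factor gene eef-2 with 73.2, the release factor gene erfa-3 with 65.6, eif-3.C with 63.2 and ife-1 with 61.8. The ife-1 summit lay far from its 5' end, at 970 bp downstream. Of 24 ribosome biogenesis genes 1 had an IDR summit, fib-1, the fibrillarin gene, with 59.0, and 5 (20.8%) a region in both replicates. Over all protein-coding genes the share with a region in both replicates was 5.19%, and that with an IDR summit 0.921%. The ubiquitin fusion gene ubq-2, whose product carries a large-subunit protein, had no region in any list. In the pooled list the median signals were 28.8 for the cytosolic ribosomal protein genes, 19.8 for the mitochondrial ones, 20.2 for translation factors and 19.97 for biogenesis genes. By these counts the IDR share of translation factor genes was as high as that of the cytosolic ribosomal protein genes, and the difference was not tested.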

How the data were processed

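Regions from 2 ChIP-seq libraries of 1 group were used, as the lists the authors deposited on ce11. The deposited text records say that regions were called with a control, separately for replicate 1, replicate 2 and their pool, before the IDR step. Each region has the authors' signal value, whose scale depends on the library. The replicate lists hold q-values deposited as −log10, and the pooled and IDR lists a deposited score of the same kind that falls below 0 and was not used. The aligner, peak caller and IDR settings were not given in the sources used here. The depth is unknown. The ce10 lists were not used, and 0 columns of per-sample values were unmatched.

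Gene positions came from Ensembl release 115 and sequences from RefSeq, both WBcel235, with Python 3.11.15, numpy 2.4.6, pandas 2.3.3, scipy 1.17.1 and matplotlib 3.10.9. The assignment was checked on 200 planted summits. No test between groups was possible with 1 group, so counts and medians stand beside those of all protein-coding genes. The labels call the libraries biological replicates. The text names every gene with an IDR summit, those whose pooled summit lay in both replicates, the 3 on each side of the weakest IDR signal, and their other-strand and intronic snoRNA genes. Further genes (the rla genes, genes that share a symbol number, rpl-5, rpl-6, ubl-1, and members of the comparison lists) were chosen after their values were seen. Members, lists and motifs were chosen with earlier results of these data known.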

Additional observations from a re-analysis of the deposited data

How the results depend on the processing

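The count of 8 genes with an IDR summit became 1 within 200 bp (1.22%, against 0.325% of all protein-coding genes). It became 5 (6.1%, against 0.645%) when only the nearest gene was taken. The count was also 5 (6.1%, against 0.711%) when genes with a nearer other-strand gene were left out. It stayed within 1.5 times of 8 in the other settings run. The 31 genes with a pooled region found in both replicates became 3 within 200 bp (3.66%, against 1.73% of all protein-coding genes) and 18 for the nearest gene only (22%, against 3.98%). Within 200 bp the pooled count was 17 (20.7%, against 18.1%), the replicate 1 count 10 (12.2%, against 10.1%) and the replicate 2 count 8 (9.76%, against 4.01%), so that the pooled and replicate 1 shares stood near those of all genes. With the 238 strongest regions of a single replicate in place of the IDR list, replicate 2 alone held 7 of the 8 genes (without rps-12) plus rpl-12, and replicate 1 alone all 8 plus rpl-11.2, counts of 8 to 9. The share was 9.76% for replicate 2 alone, against 0.891% of all protein-coding genes, and 11% for replicate 1 alone, against 0.836%. The median signal was 32.4 in the strongest part of the pooled list and 19.1 to 19.7 in single replicates, on their own scales. The median position, -271 bp, was -294.5 bp for IDR summits only and -286.5 to -276 bp in single replicates. Hosts of snoRNAs with an IDR peak numbered 1 to 2 in single replicates, a setting added after the data were seen, as were 4 of the motifs. Taking replicate summits within 200 bp of each other left r at 0.816. With 50 bp either side of the summit the count was 0 for AGGTCA, against 2.45% of all genes with a pooled region. It was 8 for GAGAGA (10.7%, against 8.39%), 8 for TTTCAG (10.7%, against 18.8%) and 6 for TATAAA (8%, against 11.3%). For CTTCTTC it was 1 (1.33%, against 2.85%), for TTTTTTT 9 (12%, against 21.4%) and for GGCCTAA 7 (9.33%, against 0.681%). With 150 bp it was 42 for TTTCAG (56%, against 47.8%) and 22 for TATAAA (29.3%, against 32.1%). Against all genes the order thus turned for TTTTTTT and TTTCAG, and also for TACACT at 150 bp (8%, against 11.5%). The cause was not tested. No paired analysis was possible because both replicates belong to 1 group. The unknown depth limits what the absence of a region can show.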
